A study of Mus musculus with 3 samples.

Results

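The 8 genes described here, Clec4d, Clec4e, Clec4n, Clec4a2, Clec5a, Clec7a, Clec10a and Mgl2, encode C-type lectin receptors of myeloid cells. They were taken by gene symbol, and all 8 were found among the 23183 genes with a value in each of 3 RNA-seq libraries of mouse lung. The RNA was taken from homogenised lungs of BALB/c females, and each group has 1 library. What the control animals received is not stated in the labels. The PM10 group received a certified reference particulate of the PM10 size class in 20 µL of saline through the nose, 4 times within 2 weeks. The OVA+PM10 group received the same particles and was in addition sensitised to OVA, the albumin of hen's egg and a standard allergen in mouse models of asthma, by 2 injections with aluminium hydroxide, the last on day 14, and nasal challenges on days 21, 22 and 23, with lungs taken 2 days later. The labels give 5 mice per group, an age of 10 weeks in one field and of 5 to 6 weeks in another, and particle doses of 100 and 200 µg, without saying which dose was sequenced or how many mice a library holds. No group given OVA alone was analysed here, so what the allergen and what the particles contributed in that group cannot be told apart.

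C-type lectin receptors sit on the surface of macrophages, dendritic cells, monocytes and neutrophils and bind carbohydrates and glycolipids of microbes, allergens and dying cells. Mincle (Clec4e), MCL (Clec4d) and Dectin-2 (Clec4n) carry no signalling motif of their own and pair with the Fc receptor gamma chain, Fcer1g, while Clec5a (MDL-1) pairs with DAP12, encoded by Tyrobp. Dectin-1 (Clec7a) carries its own tyrosine motif, and all of these pass their signal through the kinase SYK and the adaptor CARD9 to NF-κB. Clec4a2 (DCIR) is the inhibitory member of the set and recruits tyrosine phosphatases, and Clec10a and Mgl2 (the macrophage galactose-type lectins CD301a and CD301b) bind galactose and N-acetylgalactosamine and are known as markers of macrophages activated by interleukin-4 and of certain dendritic cells.

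The lung markers Sftpc, Sftpb, Sftpa1, Sftpd, Ager, Scgb1a1, Cdh5 and Pecam1 were present in every library. Control lung alone also held much RNA of skeletal muscle and squamous epithelium. There 16 skeletal muscle genes summed to 5247 FPKM, against 24.4 (PM10) and 34.3 (OVA+PM10). The 16 squamous epithelium genes summed to 6215 against 2.28 and 3.54, with Krt13 listed at 0 in PM10 lung. Adipose tissue genes were not confined to control lung: 12 summed to 481 (control), 135 (PM10) and 205 (OVA+PM10) FPKM. Of 9 tested between the exposed libraries, 6 were 2-fold or more higher and 2 lower in OVA+PM10 lung. Of all genes, 11.8% were higher and 9.00% lower there. The share of genes named as ribosomal proteins (Rpl and Rps) in all FPKM was 16.0%, 36.0% and 26.2%, and the ratios against control followed transcript length. The summed FPKM was 546315, 1293180 and 855739, and the ribosomal RNA precursor Rn45s was listed at 0, 8570 and 0 FPKM. The part of these differences in the results below was not tested. Each library is a single measurement with no replicate behind it, and the labels do not say from how many mice. No test or p-value is therefore given, and every ratio compares 2 libraries and not 2 conditions. Where 3 values follow each other, their order is control, PM10 and OVA+PM10, and a group's name with the word lung stands for its single library. In homogenised lung, fewer cells of a type and less RNA per cell cannot be told apart.

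In PM10 lung 7 of the 8 receptors were 2-fold or more higher than in control lung, and the ratios were highest for Clec4d, Clec7a, Clec4e and Clec4n, which signal through SYK. Values are FPKM (a read level corrected for the length of the transcript and the depth of the library), and a ratio is the log2 of (FPKM + 1) over (FPKM + 1), which understates the change of low genes. All 8 genes passed the filter of 1 FPKM in the higher library in each comparison. Among all 13693 genes tested in this comparison, 13.6% were 2-fold or more higher and 13.9% 2-fold or more lower. The median log2 ratio of the 8 receptors was 2.01, against 0.02 for all genes tested. Clec5a, which also signals through SYK, had 1.55, near the inhibitory Clec4a2 at 1.48. With 5 FPKM added to each value Clec5a lay below Clec4a2, at 0.72 against 0.94. When each library was scaled to the same sum, which moves the median of all genes by about 1 log2 unit to -1.03, 4 receptors were higher (Clec4d, Clec4e, Clec4n and Clec7a), Clec10a was lower, and Mgl2 lay on the other side of 0 at -0.10. Under that scaling 1.84% of all genes were higher and 51.8% lower.

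In OVA+PM10 lung 7 of the 8 were again 2-fold or more higher than in control lung, but by less for most of them. The share of all 13877 genes tested was 9.95% higher and 8.68% lower. The receptors' median log2 ratio was 1.25, against -0.0017 for all genes. With the libraries scaled to the same sum 4 stayed 2-fold or more higher (Clec4d, Clec4e, Clec4a2 and Clec7a). Clec4n (0.56), Clec10a (0.63) and Mgl2 (0.56) no longer did. Under that scaling 4.49% of all genes were higher and 24.5% lower than in control lung. Both comparisons share control lung, so that a low control value raises both. Set directly against PM10 lung, which leaves control lung out, OVA+PM10 lung had 4 receptors 2-fold or more lower (Clec4d, Clec4e, Clec4n and Clec7a) and 1 higher (Clec10a), with a median of -1.04 against -0.03 for all genes. In that comparison 9.00% of 13556 genes were lower and 11.8% higher. With the libraries scaled to the same sum Clec4n (-0.70) and Clec7a (-0.76) no longer reached 2-fold there, and Clec4d, Clec4e and Clec10a still did. Under that scaling 2.51% of all genes were lower and 24.7% higher.

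**Figure D1:**
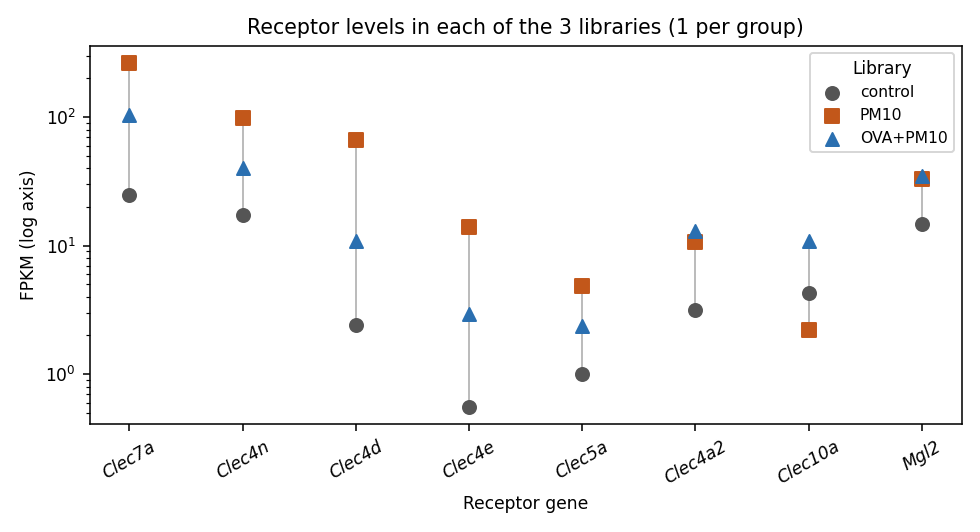
FPKM on a log axis for the 8 receptor genes in control (circle), PM10 (square) and OVA+PM10 (triangle) lung, 1 library per group, with a grey line over each gene's range. Clec7a, Clec4n, Clec4d, Clec4e and Clec5a are highest in PM10 lung, while Clec10a is lowest there at 2.21 FPKM.

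Clec4d and Clec4e, which encode MCL and Mincle, had the highest plain FPKM ratios to control in PM10 lung, while on the log2 scale of FPKM + 1 Clec7a (3.36) lay between them. They are neighbours on chromosome 6 (mm10; Clec4d from 123262107 to 123275268, Clec4e from 123281789 to 123289871, on opposite strands), and their products are known to act together as receptors of mycobacterial glycolipid. The 250 bases upstream of both starts are shown with those of 3 other members, to place the neighbours beside Clec4a2 of the same cluster, the most abundant receptor Clec7a, and Clec5a. They are RefSeq sequences of the reference strain (GRCm38.p6), not of BALB/c, written 5′ to 3′ on the gene's strand, and capitals mark GAGGAA or its reverse complement TTCCTC, the core that the myeloid transcription factor PU.1 binds.
Clec4d promoter (chr6:123261857-123262106, plus strand): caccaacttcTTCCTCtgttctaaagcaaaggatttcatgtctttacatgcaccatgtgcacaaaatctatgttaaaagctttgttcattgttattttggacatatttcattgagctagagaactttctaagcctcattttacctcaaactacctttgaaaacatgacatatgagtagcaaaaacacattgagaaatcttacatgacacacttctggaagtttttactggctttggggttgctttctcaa
Clec4e promoter (chr6:123289872-123290121, minus strand): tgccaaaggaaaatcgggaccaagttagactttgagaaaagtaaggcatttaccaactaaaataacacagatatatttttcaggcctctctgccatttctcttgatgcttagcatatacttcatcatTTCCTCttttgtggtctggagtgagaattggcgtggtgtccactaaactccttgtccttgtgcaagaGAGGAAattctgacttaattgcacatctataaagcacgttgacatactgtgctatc
Clec4a2 promoter (chr6:123122440-123122689, plus strand): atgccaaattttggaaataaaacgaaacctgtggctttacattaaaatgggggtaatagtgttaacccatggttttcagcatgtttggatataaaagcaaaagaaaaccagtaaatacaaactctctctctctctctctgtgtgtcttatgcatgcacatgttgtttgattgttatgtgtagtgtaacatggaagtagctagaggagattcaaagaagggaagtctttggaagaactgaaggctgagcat
Clec7a promoter (chr6:129472786-129473035, minus strand): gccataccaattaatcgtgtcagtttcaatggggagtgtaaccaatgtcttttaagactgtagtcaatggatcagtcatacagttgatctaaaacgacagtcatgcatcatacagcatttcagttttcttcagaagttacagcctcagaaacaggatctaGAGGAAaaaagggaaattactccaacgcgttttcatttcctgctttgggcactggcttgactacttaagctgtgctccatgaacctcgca
Clec5a promoter (chr6:40585806-40586055, minus strand): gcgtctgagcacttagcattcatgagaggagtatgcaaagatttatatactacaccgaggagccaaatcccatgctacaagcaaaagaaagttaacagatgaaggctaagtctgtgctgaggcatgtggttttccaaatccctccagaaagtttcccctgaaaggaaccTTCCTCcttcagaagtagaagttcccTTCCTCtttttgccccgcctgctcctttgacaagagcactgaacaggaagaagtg

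A promoter was matched for 6 of the 8 members: these 5 and Mgl2, for which the start used lies inside the annotated gene. Of the 6, 5 held GAGGAA on either strand (Clec4d, Clec4e, Clec5a, Clec7a and Mgl2), as did 23.1% of 27025 mouse promoters of the same length. The match began 240 bases before the start in Clec4d, 123 and 56 bases before it in Clec4e, 90 bases before it in Clec7a and 81 and 55 bases before it in Clec5a. TTGCNNAA, a core bound by C/EBP factors, was found in Clec4e alone, 66 bases before its start, and in 9.55% of all promoters. TTCNNNNGAA, the palindrome that STAT6 and other STAT factors bind, was found in Clec5a and Clec7a and in 5.88% of all promoters, and GGGNNNNNCC, a loose NF-κB pattern, in Mgl2 and in 45.4%. All were searched on both strands, and such matches describe these letters and not binding.

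Clec4d had 2.42, 65.8 and 10.8 FPKM, from about 64.0, 1138 and 217 reads. The PM10 value was 27.2 times the control value (log2 ratio 4.29), and only 15 of the 13693 genes tested, Clec4d included, had a ratio that high. Between the exposed libraries it was the receptor with the widest gap, at 6.10 times as much in PM10 lung (log2 ratio -2.50 for OVA+PM10 against PM10), and 44 of 13556 genes lay that low or lower.

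Clec4e had 0.559, 14.1 and 2.92 FPKM. The control value rests on about 28.2 reads, an estimate from the step between low values, against about 463 and 112 reads in the exposed libraries. The log2 ratios were 3.27 for PM10 and 1.33 for OVA+PM10 against control, and -1.94 between the exposed libraries. The order of the 3 libraries was therefore that of Clec4d. Within each library the level of Clec4d relative to that of Clec4e varied little, at 4.33 in control lung, 4.68 in PM10 lung and 3.69 in OVA+PM10 lung, although the levels themselves spanned more than an order of magnitude.

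Clec4n, which encodes the mannan receptor Dectin-2, also known to bind glycans of house dust mite, lies in the same cluster (chromosome 6, 123229843 to 123247024). It was already well expressed in control lung, at 17.2 FPKM, and had 98.9 FPKM in PM10 lung and 40.05 in OVA+PM10 lung. Its log2 ratios were 2.46, 1.18 and -1.28 (PM10 and OVA+PM10 against control, then OVA+PM10 against PM10). Clec4n stood at 7.10 times the level of Clec4d in control lung but at 1.503 times in PM10 lung and 3.72 times in OVA+PM10 lung, so the pair did not keep the fixed proportion that Clec4d and Clec4e did.

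Clec4a2, the inhibitory member of the cluster (123122690 to 123143999), behaved differently from its neighbours. It had 3.16, 10.6 and 13.0 FPKM. Both exposed libraries were above the control (log2 ratios 1.48 and 1.75), and they differed from each other by a log2 ratio of 0.27. Clec4d was at 0.767 times the level of Clec4a2 in control lung, 6.20 times in PM10 lung and 0.830 times in OVA+PM10 lung, so the balance of this activating and this inhibitory transcript in OVA+PM10 lung was close to that of the control. Of the 50-base windows of the Clec4a2 transcript, 8.19% also occur in transcripts of other genes, among them Clec4a4 and Clec4b1, and no source used here says how reads matching several genes were counted.

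**Figure D2:**
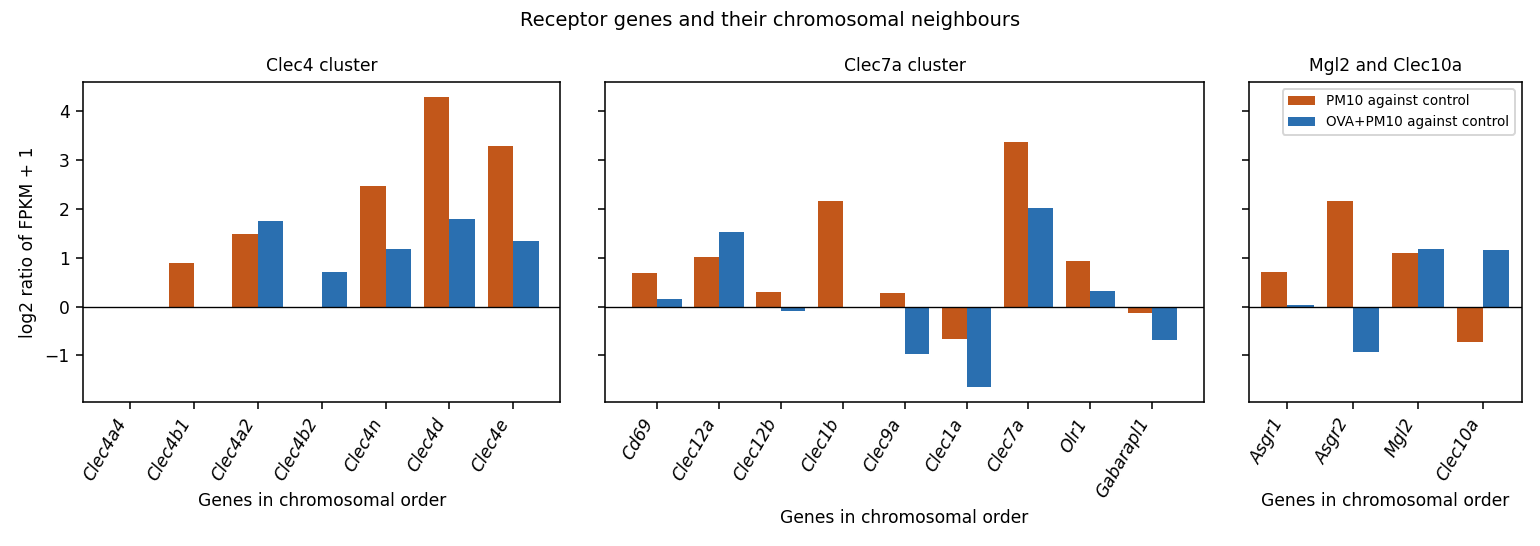
Log2 ratio of FPKM + 1 against control lung for the receptor genes and lectin or other neighbours, in chromosomal order, for PM10 (orange) and OVA+PM10 (blue). In the left group the bars for PM10 reach 4.29 at Clec4d and 3.27 at Clec4e, while Clec4a4 is listed at 0 in every library; in the middle group Clec7a stands at 3.36 beside Clec1a at -0.67.

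Not every gene of the Clec4 cluster followed Clec4d. Between 122990367 and 123289871 the files list 7 Clec4 genes, of which Clec4a4 was listed at 0 in every library and Clec4b2 was listed at 0 in the control and PM10 libraries and at 0.637 FPKM in the third. Clec4b1, which encodes a dendritic cell lectin, had 3.96, 8.17 and 3.83 FPKM, a log2 ratio of 0.89 for PM10 and -0.04 for OVA+PM10 against control. The genes with ratios above 2 for PM10 were the 3 that lie side by side at one end, Clec4n, Clec4d and Clec4e. The related gene Clec4a3 had 10.7, 17.4 and 34.9 FPKM, and Clec4a1 5.32, 4.43 and 10.4 FPKM. Both were highest in OVA+PM10 lung, as Clec4a2 was.

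Clec7a, which encodes Dectin-1, the receptor of fungal beta-glucan, was the most abundant of the set in every library (chromosome 6, 129461591 to 129472785). It had 24.8, 265 and 103 FPKM. With about 1128, 7869 and 3562 reads behind them, these values have the least counting error of the set. The PM10 value was 10.7 times the control value (log2 ratio 3.36, matched or exceeded by 30 of the genes tested, Clec7a included), the OVA+PM10 value 4.15 times (2.01, the highest of the 8 receptors in that comparison), and the log2 ratio between the exposed libraries was -1.35. In rank, Clec7a went from position 2910 among all genes in control lung to 441 in PM10 lung and 768 in OVA+PM10 lung.

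The genes beside Clec7a had smaller ratios than Clec7a in both comparisons with control. Clec1a, an endothelial lectin whose gene ends just before Clec7a begins, had 43.8, 27.3 and 13.3 FPKM, and Olr1, the oxidised LDL receptor on the other side, 3.10, 6.82 and 4.11 FPKM. Clec9a, the receptor of cross-presenting dendritic cells for dead cells, had 9.30, 11.5 and 4.24 FPKM. Clec12a, an inhibitory myeloid lectin of the same region, had 3.62, 8.33 and 12.3 FPKM and so had the order of Clec4a2, with OVA+PM10 lung highest. Clec1b, the platelet receptor CLEC-2, had 4.09, 21.6 and 4.01 FPKM.

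Clec5a was the least abundant receptor in the exposed libraries apart from Clec10a in PM10 lung (chromosome 6, 40574898 to 40585805, away from both clusters). It had 0.997, 4.86 and 2.38 FPKM, with log2 ratios of 1.55, 0.76 and -0.79. Its order of libraries was that of Clec7a and Clec4d, but OVA+PM10 lung differed from each of the other libraries by less than 2-fold on this scale. With a pseudocount of 0.25 FPKM in place of 1 the ratio for OVA+PM10 against control was 1.08, so the call of this low gene depends on the pseudocount.

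**Figure D3:**
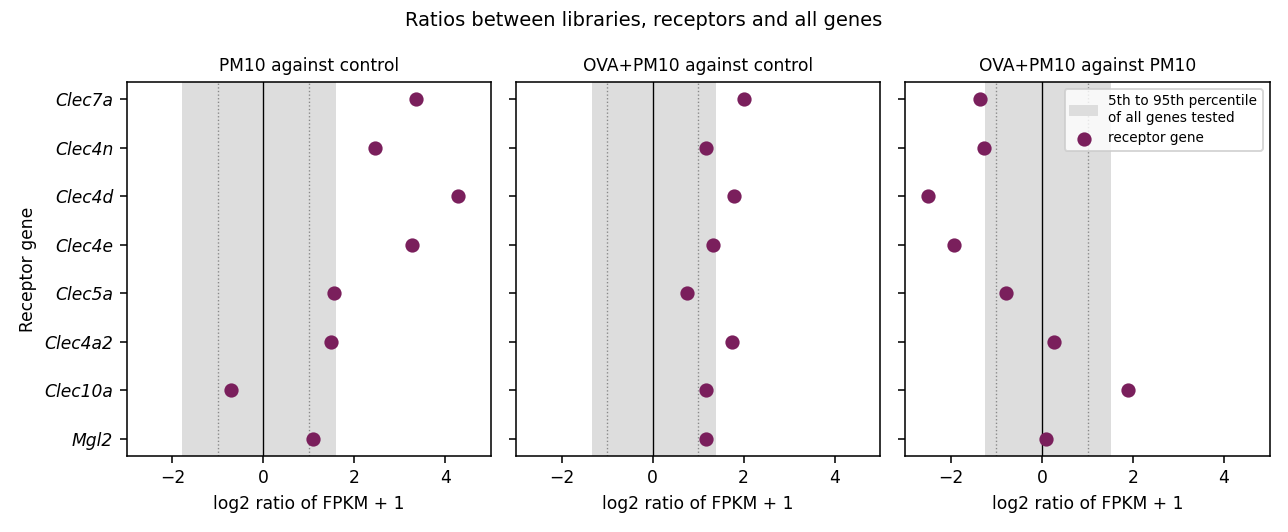
Log2 ratio of FPKM + 1 for each receptor gene (points) in the 3 comparisons, over the range between the 5th and 95th percentile of all genes tested (grey) and the 2-fold lines (dotted). Clec4d, Clec4e, Clec7a and Clec4n lie to the right of the grey range for PM10 against control, and the same 4 lie to its left for OVA+PM10 against PM10, where Clec10a at 1.88 lies to its right.

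The galactose-type lectins had another pattern, and differed from each other. Mgl2 and Clec10a are neighbours on chromosome 11 (70130125 to 70137542 and 70166623 to 70170836). Mgl2 had 14.9, 32.7 and 34.6 FPKM. Its log2 ratios against control were 1.09 and 1.17, or -0.10 and 0.56 with the libraries scaled to the same sum. As deposited, its ratio between the exposed libraries was 0.08, the smallest of the set. Removing the trend over transcript length lowered the PM10 ratio to 0.56 and the OVA+PM10 ratio to 0.87, both under 2-fold.

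Clec10a had 4.29, 2.21 and 10.9 FPKM, and was the single receptor with its lowest value in PM10 lung. The log2 ratio was -0.72 for PM10 against control, a difference under 2-fold that rests on about 128 and 43.3 reads, and 1.16 for OVA+PM10 against control. Between the exposed libraries it was 1.88 (4.91 times as much in OVA+PM10 lung), and 351 of 13556 genes reached that ratio. Mgl2 stood at 3.46 times the level of Clec10a in control lung, 14.8 times in PM10 lung and 3.19 times in OVA+PM10 lung, so the proportion of the pair in OVA+PM10 lung was near that of the control. Both transcripts are partly alike: 16.7% of the 50-base windows of Clec10a also occur in Mgl2, and 17.0% of those of Mgl2 in Clec10a or other genes. Their separate values and their proportion are therefore uncertain. These shares do not bound the error, since Mgl2 was the higher of the pair in every library. Their sum was 19.1, 34.9 and 45.5 FPKM.

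**Figure D4:**
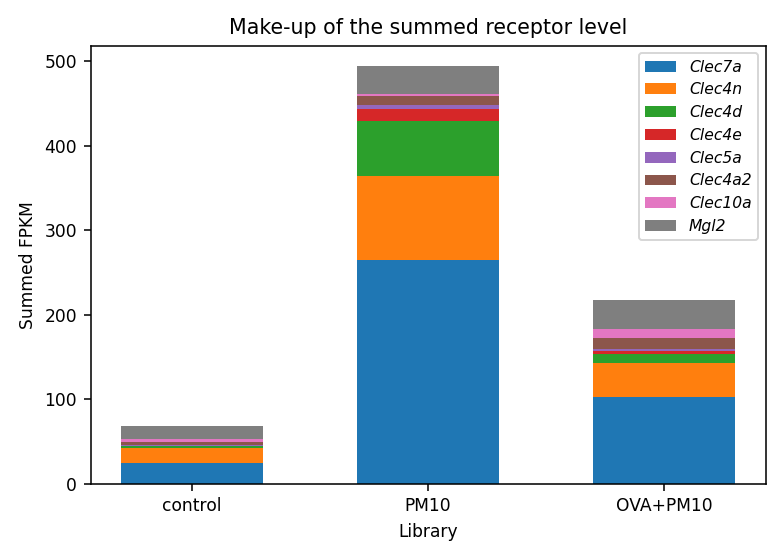
Summed FPKM of the 8 receptor genes in each library, stacked by gene from 0. The sum is 68.3 in control lung, 494 in PM10 lung and 218 in OVA+PM10 lung, and Clec7a makes up the greatest part of each bar.

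Summed over the 8 genes, the receptor transcripts amounted to 68.3 FPKM in control lung, 494 in PM10 lung (7.23 times the control) and 218 in OVA+PM10 lung (3.19 times). The make-up differed as well. Clec7a accounted for 36.3% of the sum in control lung, 53.6% in PM10 lung and 47.4% in OVA+PM10 lung, and Clec4d for 3.54%, 13.3% and 4.95%. Mgl2 made up 21.8% in control lung, 6.62% in PM10 lung and 15.9% in OVA+PM10 lung, and Clec10a 6.28%, 0.448% and 4.99%. The 5 receptors that signal through SYK (Clec4d, Clec4e, Clec4n, Clec5a and Clec7a) together were 9.75 times as high in PM10 lung as in control lung and 3.46 times as high in OVA+PM10 lung. The summed FPKM of all genes had the same order of libraries. The receptor sums were not scaled to it, so their ratios to control are larger than those of a share of the library.

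Transcript length moved with some of these ratios, since short transcripts had higher ratios in PM10 lung. The trend was taken over the longest transcript of each gene. For Clec4e this has 4804 bases, against 2518 in its RefSeq-matched transcript, and for Clec10a 2332 against 1496. Values with the shorter lengths were not computed, so the corrected ratios of these genes, and their place among the others, are uncertain. With that trend removed, the PM10 ratios were 3.52 for Clec4d, 3.58 for Clec4e, 3.12 for Clec7a, 1.77 for Clec4n, 1.59 for Clec5a, 1.28 for Clec4a2 and -0.91 for Clec10a. Then 6 of the 8 were 2-fold or more higher, Mgl2 being the one that no longer was. For OVA+PM10 against control 4 of the 8 remained 2-fold or more higher, namely Clec7a (1.86), Clec4e (1.58), Clec4a2 (1.58) and Clec4d (1.32). Of all genes, 7.97% were then higher and 11.1% lower for PM10, and 7.50% and 8.40% for OVA+PM10. Between the exposed libraries Clec4n (-0.96) lost its call. Clec4d (-2.12), Clec4e (-2.02) and Clec7a (-1.28) stayed 2-fold or more lower in OVA+PM10 lung, and Clec10a (1.90) higher. There 11.5% of all genes were higher and 7.14% lower.

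Part of the genes that most leukocytes or myeloid cells express also differed 2-fold or more from control. Of 19 such genes, 10 of the 18 tested were 2-fold or more higher and none lower in PM10 lung (median log2 ratio 1.03). In the same way 8 of 19 were higher and none lower in OVA+PM10 lung (median 0.91). As deposited, 13.6% of all genes were higher and 13.9% lower for PM10, and 9.95% and 8.68% for OVA+PM10. The sum of the 19 genes was 4449 FPKM in control lung, 8474 in PM10 lung and 5510 in OVA+PM10 lung, and none of them was listed at 0. The pan-leukocyte phosphatase Ptprc (CD45) had 29.1, 20.0 and 31.0 FPKM and the myeloid factor Spi1 (PU.1) 32.5, 41.1 and 61.9 FPKM. The lysozyme genes had their lowest values in OVA+PM10 lung, with 416, 991 and 221 FPKM for Lyz1 and 3202, 4581 and 2724 FPKM for Lyz2. Clec4d, Clec4e and Clec7a had a higher PM10 ratio than each of the 18 leukocyte genes, Clec4n one higher than 16 of them, and Mgl2 one higher than 10, while Clec10a lay below all 18. In OVA+PM10 lung the receptors stood closer to that list. Clec7a lay above 17 of 19, Clec4d and Clec4a2 above 15, and Clec5a above 8. Centred on the median of the list, 4 receptors were 2-fold or more higher in PM10 lung (Clec4d, Clec4e, Clec4n and Clec7a) and 1 lower (Clec10a, at -1.75), and 1 was higher in OVA+PM10 lung (Clec7a, at 1.10). Of all genes, 2.07% were higher and 50.8% lower in PM10 lung under this centring, and 1.85% higher and 44.1% lower in OVA+PM10 lung.

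The cell types that carry these receptors were followed by their markers, whose part in the receptor values was not tested. The counts below stand beside shares of all genes of 13.6% higher and 13.9% lower in PM10 lung. For OVA+PM10 lung these shares were 9.95% and 8.68%. Of 26 markers of monocytes and interstitial macrophages, 10 were 2-fold or more higher and 3 lower in PM10 lung, and 11 higher and 2 lower in OVA+PM10 lung, with sums of 1479, 2983 and 2610 FPKM. Gpnmb, a glycoprotein of lipid-laden macrophages, had 4.54, 76.3 and 17.3 FPKM, an order of libraries like that of Clec4d, whereas Folr2, a marker of resident interstitial macrophages, had 11.8, 0.861 and 18.7 FPKM, with its lowest value in PM10 lung as for Clec10a. Alveolar macrophages were represented by 20 genes, 7 above and 3 below the 2-fold limits in PM10 lung and 6 above and 4 below them in OVA+PM10 lung (sums 1367, 3503 and 4431 FPKM, or 1273, 2862 and 2326 without Chil3, which turns the order of the exposed libraries). Among those below, Fabp4 (PM10) and Lpl (OVA+PM10) are also on the adipose tissue list, whose sum was highest in control lung. Neutrophil markers were not higher as a group in PM10 lung, with 3 of 15 tested 2-fold or more higher, 2 lower and a sum of 1083 against 1118 FPKM. In OVA+PM10 lung 9 of 15 were higher and 1 lower, and the sum was 4051 FPKM. Of 22 dendritic cell markers, 5 of 21 tested were higher and 1 lower in PM10 lung and 8 higher and none lower in OVA+PM10 lung (sums 2269, 3428 and 5181 FPKM). Those higher in PM10 lung were Cd209a, H2-Aa, H2-Ab1, Sirpa and Itgax, which the alveolar macrophage list also holds. The lower one was Zbtb46, with 8.36, 1.97 and 5.03 FPKM. Cd74 (983, 629 and 1947 FPKM) and H2-Aa (467, 1375 and 1325 FPKM) had the highest values of the list in every library. Of 10 eosinophil markers, none of 7 tested was higher and 4 were lower in PM10 lung (Alox15, Ccr3, Ear6 and Prg2, median -1.03), and 7 of 10 were higher and none lower in OVA+PM10 lung. They summed to 228, 313 and 832 FPKM, or 99.8, 83.1 and 374 without Ear2, which the alveolar macrophage list also holds. In PM10 lung 4 of the 10, among them Prg2 and Ear6, were listed at 0.

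The adaptors Fcer1g, Tyrobp and Hcst were 2-fold or more higher in both exposed libraries, while the list of adaptors and enzymes as a whole was near all genes in PM10 lung. Fcer1g, the partner of Clec4d, Clec4e and Clec4n, had 46.3, 195 and 127 FPKM (log2 ratios 2.05 and 1.44 against control). Tyrobp, the partner of Clec5a, had 119, 454 and 397 FPKM, and Hcst, which encodes the related adaptor DAP10, 14.8, 128 and 59.2 FPKM. In FPKM as deposited, all 3 adaptors were highest in PM10 lung, like the receptors that use them. The summed FPKM of all genes was also highest in that library. The adaptors were not scaled to the same sum, so their calls and order hold for the deposited values only. Syk had 11.6, 11.8 and 16.1 FPKM and Card9 3.08, 4.41 and 2.60 FPKM, differences under 2-fold. Of the 24 adaptors and signalling enzymes listed, 4 were 2-fold or more higher (Fcer1g, Tyrobp, Hcst and Vav1) and 1 lower (Vav2) in PM10 lung, and 4 higher (Fcer1g, Tyrobp, Hcst and Lcp2) and 1 lower (Vav3) in OVA+PM10 lung. In both libraries 16.7% of the list was higher and 4.17% lower, against 13.6% and 13.9% of all genes for PM10 and 9.95% and 8.68% for OVA+PM10, and its medians were 0.03 and 0.41. Between the exposed libraries Plcg2 (5.68 in PM10, 15.4 in OVA+PM10) and Pik3cg (2.04 and 6.46) were higher in OVA+PM10 lung, the reverse of Clec7a. The adaptor transcripts are short, and ratios in PM10 lung followed length as described. The part of length in the adaptor ratios was not tested.

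**Figure D5:**
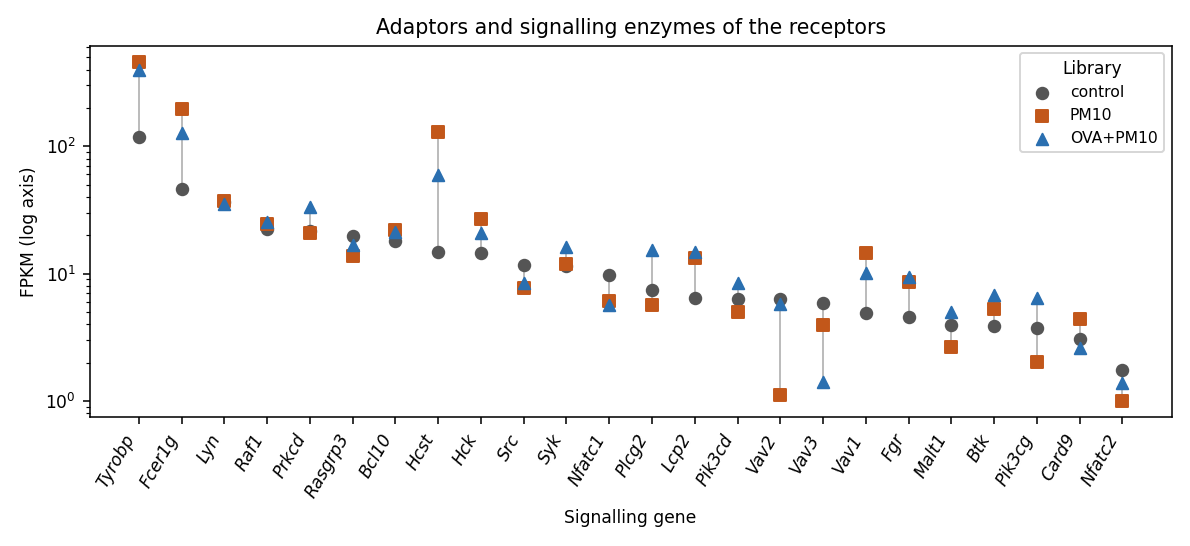
FPKM on a log axis of 24 adaptors and signalling enzymes of the receptors in control (circle), PM10 (square) and OVA+PM10 (triangle) lung, ordered by the control value. Tyrobp, Fcer1g and Hcst are lowest in control lung, while Syk lies between 11.6 and 16.1 FPKM in all 3 libraries.

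Ptpn6, which encodes the phosphatase SHP-1 that Clec4a2 recruits, had 26.3, 31.7 and 36.8 FPKM, and Ptpn11 (SHP-2) 39.5, 19.3 and 22.9 FPKM. Of 8 inhibitory phosphatases, docking proteins and ubiquitin ligases measured, none was higher and 1 lower in PM10 lung, the ligase Cbl at 0.209 against 8.32 FPKM, while Dok2 alone was higher in OVA+PM10 lung (22.3 against 8.96 FPKM). The share of 12.5% for a single gene is near that of all genes, so the counts set this list apart in neither library. Of 10 NF-κB subunits and inhibitors, Nfkbia, the feedback inhibitor, had 14.1, 81.5 and 23.3 FPKM, and Nfkb1 29.3, 13.1 and 27.4 FPKM. Nfkbia was the single member 2-fold or more higher in PM10 lung, Nfkb1 and Rel (4.24, 0.229 and 3.21 FPKM) were lower there, and none of the 10 was 2-fold higher or lower in OVA+PM10 lung. For PM10 that is 10% higher and 20% lower, against 13.6% and 13.9% of all genes.

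Genes that the SYK and CARD9 route is known to induce, among them cytokines, enzymes and transcription factors, were partly higher. Of 22 such genes, 18 reached 1 FPKM in control or PM10 lung, 8 of them were 2-fold or more higher in PM10 lung and 1, the nitric oxide synthase Nos2, was lower. In OVA+PM10 lung 7 of 15 tested were higher and none lower. Over all genes 13.6% were higher and 13.9% lower for PM10, and 9.95% and 8.68% for OVA+PM10. The chemokine Cxcl3 had 0.269, 16.7 and 4.75 FPKM, Ccl3 1.503, 26.6 and 4.40, Ccl4 0.487, 7.54 and 3.32 and Cxcl1 1.18, 6.98 and 3.76. These 4 chemokines were highest in PM10 lung, as Clec4d and Clec4e were. Other chemokines of the list were highest in OVA+PM10 lung, namely Ccl2 with 3.36, 4.21 and 14.5 FPKM and Ccl22 with 4.82, 8.56 and 13.6 FPKM, as Clec4a2 was. Il23a and Csf3 were listed at 0 in every library.

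Genes of interleukin-4 and STAT6 signalling, under which Clec10a and Mgl2 are known to be induced, were followed in the same way. Of 21 such genes, 4 of 19 tested were 2-fold or more higher and 1 lower in PM10 lung, and 12 of 21 higher and none lower in OVA+PM10 lung. For PM10 that is 21.1% higher and 5.26% lower, against 13.6% and 13.9% of all genes. For OVA+PM10 it is 57.1% higher, against 9.95% of all genes, of which 8.68% were lower. Arg1, the arginase of alternatively activated macrophages, had 5.12, 1.5 and 48.8 FPKM, the same order as Clec10a. Retnla, which encodes the secreted protein RELMα and makes up most of this list's FPKM in the exposed libraries, had 245, 1611 and 37463 FPKM, higher in PM10 lung than in control lung and so unlike Clec10a. The lectin-like Chil3 had 93.4, 641 and 2106 FPKM and Ccl17 8.84, 203 and 106 FPKM, so members of this list did not share one order. The macrophage mannose receptor Mrc1, a lectin often used beside Mgl2 as a marker of such macrophages, had 32.2, 18.3 and 34.3 FPKM. Il4ra (24.4, 32.8 and 18.2) and Stat6 (34.2, 32.7 and 28.7) stayed within 2-fold.

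Across 52 other C-type lectin and related genes no common direction was seen. In PM10 lung 7 of 40 tested were 2-fold or more higher and 6 lower (median 0.15), and in OVA+PM10 lung 5 of 39 were higher and 5 lower (median 0.03), against medians of 2.01 and 1.25 for the 8 receptors. For PM10 that is 17.5% higher and 15% lower, against 13.6% and 13.9% of all genes. For OVA+PM10 it is 12.8% each way, against 9.95% and 8.68%. Cd209a, the mouse DC-SIGN of monocyte-derived dendritic cells, had 7.26, 16.4 and 13.1 FPKM, Clec2d, a ligand of NK cell receptors, 37.1, 109 and 27.0, and the surfactant collectin Sftpd 588, 2228 and 1200.4.

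The genes most like each receptor were named by the distance between their log2 ratios against control in the PM10 and OVA+PM10 libraries, over 10025 genes with at least 5 FPKM in any library. With 3 libraries such likeness is weak. For Clec4d the nearest were the haemoglobin gene Hba-a2 (distance 0.04), the RNase P RNA Rpph1 (0.11) and Gpnmb (0.49), and for Clec4e the RNA Rmrp (0.27), Rps21 (0.29) and Ccl3 (0.29). Among those nearest to Clec7a were Bcl2a1b (0.32) and Rpl38 (0.34), and for Clec4n they were Rps23 (0.04), Rpl27a (0.09) and Ndufb7 (0.09). The nearest to Clec4a2 were Krt18, Rpl26 and Wfdc2, to Clec5a Tmem120a, H2-Ke6 and Mrpl12, to Clec10a Cyfip2, Shmt1 and SlcUbl4a, and to Mgl2 Syngr2, Syce2 and Gch1. Several of these are genes of ribosomes, red cells or epithelium and not of myeloid cells.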

How the data were processed

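RNA was sequenced from lung homogenates, with 1 library per group, assigned by title. Per the labels' protocols, 1.3 µg of total RNA entered a stranded preparation (NEBNext Ultra II Directional). Per the submitters' processing notes, TopHat and mm10 were used; which program counted, on which annotation, and whether strand or multiple matches were heeded, no source used here says. The deposited values were FPKM, a unit inferred from the values since no header names it. The smallest steps between low values imply depths of about 20.0 (control), 13.1 (PM10) and 15.2 (OVA+PM10) M reads, approximate because the authors' gene lengths are unknown. No fold is given against a 0, which may mean that estimation failed: the Golgi gene Tgoln2 is listed at 24.6, 0 and 22.0 FPKM (control, PM10, OVA+PM10).

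Log2 ratios of FPKM + 1 were computed over the whole table (Python 3.11.15, pandas 2.3.3). A gene was called at 2-fold, with at least 1 FPKM in whichever library was higher. Simulated data served to test the code. Transcript lengths came from GENCODE M21 (GRCm38, the assembly of mm10), gene coordinates and promoters from RefSeq on GRCm38.p6. The trend over length was removed with a running median over 501 genes, ordered by the longest transcript of each gene. Genes were named from all members, the 4 members of each list (8 for lectins and signalling genes) with the largest ratios at 5 FPKM or more, a fixed set, and the 3 genes nearest to each receptor; not all that this rule gives are described, and 1 nearest gene is not reported here. The members and lists were chosen with earlier results of these data known. Named outside the rule, after their values were seen, were lung markers, chromosomal neighbours, Lcp2, Rel, Nos2, Ccl2, Ccl22, Lyz2, Ear2, Il23a and Csf3. Alternatives covered the pseudocount, filter, threshold, scaling and length trend.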

Additional observations from a re-analysis of the deposited data

How the results depend on the processing

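With 1 library per group no replicate could be left out, and no paired analysis was possible because each group had 1 library. Where counts are given as deposited first, 7 receptors differed at least 2-fold from control in the PM10 library, 7 in the OVA+PM10 library, and 5 between the exposed libraries. With 5 FPKM added to each value the counts against control were 4 (PM10, median log2 ratio 1.36) and 4 (OVA+PM10). Of all genes, 9.25% were then higher and 5.47% lower for PM10, and 5.00% and 3.78% for OVA+PM10. At a 4-fold threshold the receptor counts were 4 and 1 against control, and 1 between the exposed libraries. The shares of all genes higher and lower were then 2.21% and 3.83% (PM10) and 1.49% and 1.99% (OVA+PM10). Between the exposed libraries they were 2.14% and 0.82%. With at least 5 FPKM required, Clec5a and Clec10a dropped out, and the PM10 median over the 6 receptors left was 2.86, with their own ratios unchanged. Of all genes, 17.3% were then higher and 13.4% lower. Scaling to the same sum gave 4 receptors for OVA+PM10 against control and 3 between the exposed libraries, a PM10 median of 1.00, and a ratio of -0.10 for Mgl2 in the PM10 library, where all genes divided into 262 higher and 7392 lower (1869 and 1907 as deposited). For OVA+PM10 the division was 652 and 3560 against control (1381 and 1204 as deposited) and 3354 and 341 against PM10 (1604 and 1220). Removing the length trend left 4 receptors for OVA+PM10 against control, where 7.50% of all genes were higher and 8.40% lower. Among the settings chosen after seeing the data, centring on the leukocyte list gave medians of 0.97 (PM10) and 0.34 (OVA+PM10) and 1 receptor for OVA+PM10. Scaling to the same sum without ribosomal, squamous, muscle and adipose genes gave a PM10 median of 1.30 and 4 receptors for OVA+PM10 against control. It gave 3 between the exposed libraries, where Clec4n (-0.91) and Clec7a (-0.98) lost their calls. All genes were then 5.00% higher and 18.4% lower for OVA+PM10 against control, and 18.3% and 3.76% between the exposed libraries. The cause of these shifts was not tested. Clec4d, Clec4e, Clec4n and Clec7a stayed 2-fold or more above control in PM10 lung under each of the scalings, centrings and trend removals run. The control values of Clec4e, Clec4d and Clec5a rest on about 28.2, 64.0 and 74.7 reads, and the PM10 value of Clec10a on about 43.3.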

Other observations

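Some lectin genes of other cells differed between libraries, and were chosen here after their values were seen. The endothelial and vessel-associated lectin-like genes Clec14a, Clec1a, Thbd (thrombomodulin) and Cd93 were 2-fold or more lower in OVA+PM10 lung than in control lung. Clec14a had 107, 127 and 37.2 FPKM (control, PM10 and OVA+PM10), Thbd 187, 117 and 50.7 FPKM and Cd93 86.2, 58.4 and 28.9 FPKM. The endothelial markers Cdh5 (265, 94.9 and 78.8 FPKM) and Pecam1 (308, 221 and 139 FPKM) were 2-fold or more lower in OVA+PM10 lung as well, and their part in these values was not tested. Within the Cd209 family, Cd209e had 0.774, 1.57 and 16.3 FPKM and Cd209d 4.73, 6.75 and 18.2 FPKM, both highest in OVA+PM10 lung, whereas Cd209c had 1.64, 11.4 and 1.27 FPKM. Cd209f and Cd209g were listed at 0 in PM10 lung and had 3.18 and 3.91 FPKM in control lung. These genes are close relatives of one another, and no source used here says how reads shared between them were counted.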
